A study of Mus musculus with 5 samples.

Results

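The 10 genes described here were grouped as feedback on the ERK cascade, though *Dusp10* encodes a phosphatase with a preference for p38 and JNK. They are the dual-specificity phosphatases *Dusp1*, *Dusp4*, *Dusp5*, *Dusp6* and *Dusp10*, the Sprouty genes *Spry1*, *Spry2* and *Spry4*, and the Spred genes *Spred1* and *Spred2*. They were found by name among the 20365 gene names of the deposited tables. Where a gene had several 3′ UTR intervals, that with the largest mean CPM under labeling was taken. SLAMseq had been carried out on cardiac fibroblasts (CF) of healthy wildtype mice, which were adult males of the strain C57Bl/6J. In 3 libraries, the CF had been kept for 12 h with 0.1 mM 4-thiouridine (S4U), a uridine analog that enters RNA made during that time. In the other 2 libraries, the unlabeled controls, CF had been incubated in parallel for 12 h without S4U. After alkylation an incorporated S4U is read as C in place of T, so the T>C conversion rate (conversions per covered T position) rises with the share of a transcript made during labeling. That share can rise no further once all copies were made during the 12 h, and rates were not turned into half-lives here. Both groups came from plated cells grown to confluency in medium with serum, so the values describe cultured and not freshly isolated CF.

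Growth factor receptors signal through RAS, RAF and MEK to the kinase ERK, and active ERK induces the genes that restrain it. Dual-specificity phosphatases take the activating phosphates off ERK, JNK or p38, with preferences that differ between members. Sprouty and Spred proteins act higher up, between the receptor and RAF, and Spred proteins bring the RAS inhibitor neurofibromin to the membrane. In fibroblasts, the cascade carries signals of PDGF, FGF and serum, and mRNAs of such feedback genes are classed with short-lived transcripts.

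On 1 interval per gene, 506045 to 1576048 reads were counted in the labeled and 996143 to 1843033 in the unlabeled libraries, with labeled replicate 3 the shallowest. The T>C conversion rate over a whole library was 0.0353 to 0.0358 with S4U and 0.000652 to 0.00111 without it. The deposited CPM divides by a number of reads that is larger than the counted reads and differs in its ratio to them between libraries. *Spred1* shows the effect. Its deposited CPM was 25.2, 15.8 and 6.36 in labeled replicates 1 to 3, whereas the CPM relative to counted reads was 191, 187 and 184. Levels are therefore given as CPM relative to the reads counted on 1 interval per gene, called CPM of counted reads. The libraries hold the 3′ end of each transcript, so that read numbers were not divided by length when genes were compared. Summed over 6 fibroblast markers, the level was 19929 to 20495 CPM of counted reads in labeled and 16134 to 17229 in unlabeled libraries. Cardiomyocyte markers summed to 8.03 or less in every library, with 4 of 5 at 10 reads or fewer in all libraries together and 1 with no read. In these bulk libraries, fewer cells that express a gene and less of its RNA per cell cannot be told apart.

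All 10 intervals lay inside the last exon and the annotated UTR of their gene on the build GRCm39 (GENCODE vM39). *Dusp1* was read from chr17:26724565-26725253 on the minus strand, in exon 4. *Dusp6* was read from chr10:99102162-99103351 on the plus strand, also in exon 4, where the gene Gm34921 overlaps it on the other strand. The *Spry1* interval, chr3:37697701-37698748 in exon 3, was on the plus strand. The *Spry2* interval, chr14:106129381-106130236 in exon 2, was on the minus strand. The Spred intervals were longer, with 4330 bases for *Spred1* (chr2:117008431-117012760, plus strand) and 2579 bases for *Spred2* (chr11:19971448-19974026, plus strand), both in exon 7. *Dusp4* (chr8:35285938-35287048) and *Dusp10* (chr1:183806721-183807833) spanned 1111 and 1113 bases, and *Dusp5* (chr19:53529754-53530240) spanned 487, all on the plus strand. Since T positions carry the label, the share of T matters, and it ran from 25.3% in *Dusp5* to 37.1% in *Spry2*.

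Short elements known for a part in mRNA turnover were looked for in the intervals, on the transcript strand, after the values had been seen. The searches were for ATTTA, the core of AU-rich elements, for TTATTTATT, a longer AU-rich element that contains ATTTA, and for TGTANATA, the element bound by Pumilio proteins. The sequences below, from GRCm39 and written 5′ to 3′ on the transcript strand, show these elements in the members with the deepest data. The capitals mark the element. The *Dusp1* windows (chr17:26725135-26725159 and chr17:26724744-26724767, minus strand), the *Dusp6* windows (chr10:99103286-99103306 and chr10:99102654-99102677, plus strand) and those of the other genes are given in this order.
*Dusp1* TTATTTATT: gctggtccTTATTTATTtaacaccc
*Dusp1* TGTANATA: tactatctTGTAAATAgacccaga
*Dusp6* ATTTA: gagctggaATTTAttataaga
*Dusp6* TGTANATA: ctgattatTGTAAATAtttgatct
*Spry1* ATTTA, chr3:37698562-37698582, plus strand: taaagaatATTTAttatgcga
*Spry2* ATTTA, chr14:106129530-106129550, minus strand: taaagaatATTTAtttgaagt
*Spred1* TGTANATA, chr2:117010001-117010024, plus strand: ctgaacaaTGTATATAtatataac
*Spred2* TGTANATA, chr11:19973153-19973176, plus strand: accatcagTGTAGATAatcagcat

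*Spry1* and *Spry2* held 2 ATTTA each, and the one shown lay in a common run of 17 bases, which started at base 860 of the *Spry1* interval and at base 685 of the *Spry2* interval. Runs of this length were not particular to the paralogs, as *Dusp10* shared 20 bases with *Dusp5* and 17 with *Spred2*, and *Dusp6* shared 17 with *Spry2*, in stretches rich in T. At least 1 ATTTA was present in 9 of the 10 members, and in 62.5% of the 20329 gene intervals searched. Members with long intervals have more room for it, and the share among intervals within 20% of each member's length averaged 76.9%. TTATTTATT was present in *Dusp1* only among the members, 2 times, whereas 7.12% of all intervals held it. Of the 2249 intervals within 20% of the length of *Dusp1*, 3.91% held TTATTTATT at least once and 0.622% held it at least 2 times. TGTANATA was present in 6 of 10 members, against 22.3% of all intervals and an average of 27.3% at the members' lengths. *Spred1* had 4 of them, *Spred2* 3 and *Dusp6* 2, and as many were found in 3.47%, 3.43% and 4.48% of the intervals of like length. *Spry4* also had 2, and *Dusp1* and *Spry2* had 1 each. For these, 19.3%, 13.5% and 16.6% of the intervals of like length held as many. These matches are a description of letters and not of binding.

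The polyadenylation signal AATAAA was looked for as well, because reads of a 3′ end library start near the poly(A) tail. It is shown for *Dusp1* (chr17:26724575-26724596, minus strand), *Dusp4* (chr8:35287017-35287038, plus strand) and *Dusp6* (chr10:99103319-99103340, plus strand), with the hexamer in capitals. It began 24, 24 and 25 bases before the end of these intervals. In *Dusp5*, *Dusp10* and *Spred1* the last AATAAA began farther away, 156, 356 and 1225 bases before the end, though *Spred1* had the variant ATTAAA at 26 bases.
*Dusp1*: tacaacagAATAAAttatgacg
*Dusp4*: ctcttttgAATAAAaagatacg
*Dusp6*: aaattattAATAAAtaactatt
Neither AATAAA nor ATTAAA was found in the intervals of *Spry1*, *Spry2* and *Spred2*.

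*Spry1*, *Spry2* and *Spred1* were the most abundant members, with means of 320 ± 185, 229 ± 115 and 187 ± 3.63 CPM of counted reads in the labeled libraries (SD, n = 3). *Dusp1*, *Dusp6* and *Spred2* followed with 70.6 ± 10.9, 53.8 ± 21.9 and 36.2 ± 6.78. *Spry4* had 14.9 ± 5.53, *Dusp4* had 7.85 ± 1.76 and *Dusp10* had 6.37 ± 4.14, and *Dusp5* was not read in any labeled library. The order of *Spred1* above *Dusp1*, of *Spred2* above *Spry4* and of *Spry4* above *Dusp4* was the same in 5 of 5 libraries. *Spry2* was above *Spred1* in only 2 of 5 libraries and *Dusp1* above *Dusp6* in 3 of 5, so these neighbours did not differ beyond their spread.

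**Figure D1:**
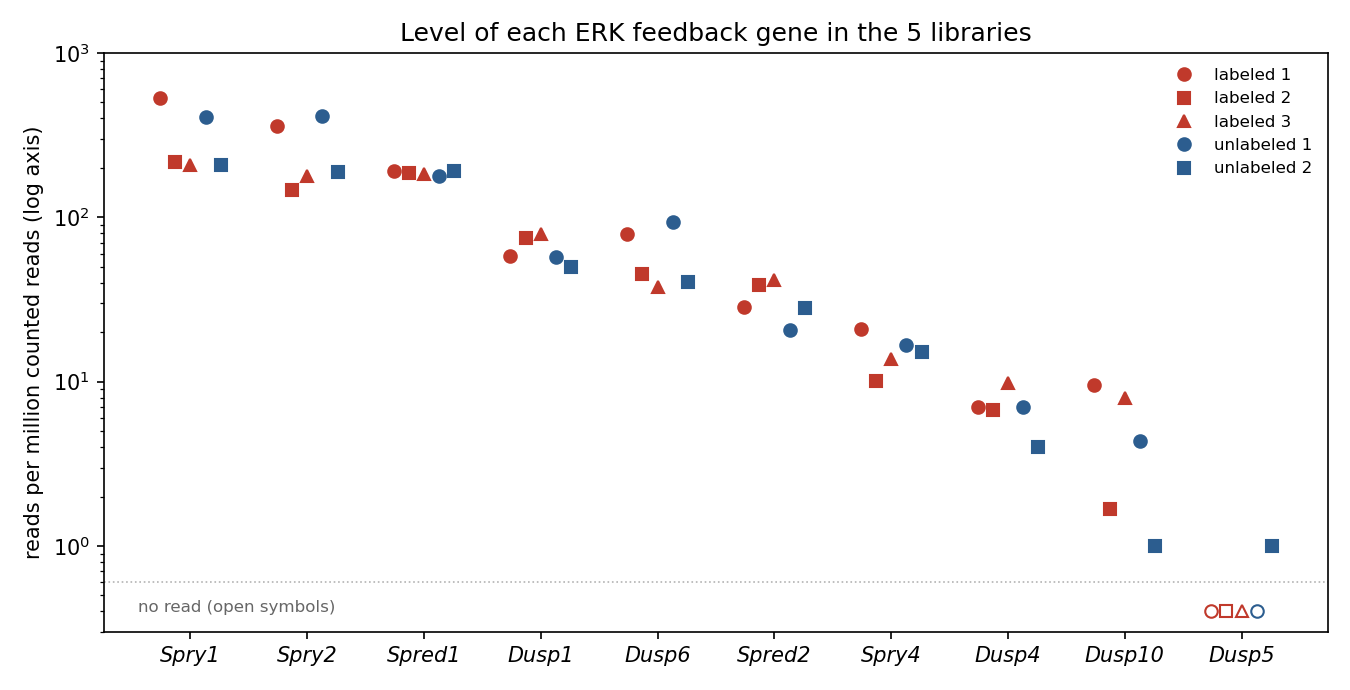
CPM of counted reads (log axis) of the 10 members, ordered by their labeled mean, with 1 symbol per library (red for labeled, blue for unlabeled, shape for the replicate number). *Spry1* reaches 534 in labeled replicate 1 while *Spred1* stays between 178 and 192 in all 5 libraries, and open symbols mark the 4 libraries without a *Dusp5* read.

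Among the phosphatases, *Dusp1* encodes a nuclear enzyme that acts on p38 and JNK as well as on ERK. It had 92, 89 and 40 reads in labeled replicates 1 to 3 and 105 and 50 in unlabeled replicates 1 and 2. Its level was 58.4, 74.5 and 79.0 CPM of counted reads with S4U against 57.0 and 50.2 without it. The 3 labeled libraries were thus above both unlabeled ones, although labeled replicate 1 exceeded unlabeled replicate 1 by little. The T>C conversion rate of *Dusp1* was 0.0320, 0.0404 and 0.0375 with S4U. No conversion was seen without S4U among 2933 and 1475 covered T positions, which allows rates of up to 0.00102 and 0.00203 (3 conversions, counting error only). The rise with S4U passed the beta-binomial test (p = 3.45e-06). Of the *Dusp1* reads in the labeled libraries, 55.4%, 66.3% and 72.5% carried at least 1 conversion, in the order of the replicates.

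*Dusp6* encodes a cytoplasmic phosphatase that is selective for ERK. With 124, 54 and 19 reads in the labeled and 173 and 40 in the unlabeled libraries, its level was 78.7, 45.2 and 37.5 against 93.9 and 40.2 CPM of counted reads. The highest libraries of both groups were those numbered 1, and the groups overlapped. Its rate was 0.0414, 0.0359 and 0.0375 with S4U, a rise that passed the beta-binomial test (p = 3.03e-05). Without S4U, 13 conversions in 4293 covered T positions gave *Dusp6* a rate of 0.00303 in unlabeled replicate 1, and there was no conversion in 998 positions of replicate 2 (limit 0.00301). The 13 conversions stood in 13 different reads of 173. In 3156 intervals, called deeply covered here, every library covered 1000 or more T positions. In these, the unlabeled rate, as a mean of both libraries, had quartiles of 0.000239 and 0.00103. The *Dusp6* mean of 0.00151, with conversions in unlabeled replicate 1 only, lay above the upper quartile.

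*Dusp4* and *Dusp5* encode nuclear phosphatases, the latter selective for ERK, and *Dusp10* encodes one with a preference for p38 and JNK. These genes were near the limit of detection. *Dusp4* had 11, 8 and 5 labeled and 13 and 4 unlabeled reads, which corresponded to 6.98, 6.69 and 9.88 against 7.05 and 4.02 CPM of counted reads, with overlapping groups. Over the labeled libraries, 13 of 396 covered T positions of *Dusp4* were converted (exact 95% interval of the pooled rate 0.0176 to 0.0555). The positions of 1 read are not independent, so that intervals of this kind cover counting error only. The rates of *Dusp4* by library were 0.0275, 0.0303 and 0.0488 with S4U and 0.0105 and 0 without it, the last of 42 positions. The difference passed the beta-binomial test (p = 0.0379), but no longer without labeled replicate 3, unlabeled replicate 1 or unlabeled replicate 2. By limma on the log odds *Dusp4* was called raised, but not with the replicate number as a block.

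*Dusp10* had 15, 2 and 4 labeled and 8 and 1 unlabeled reads, that is 9.52, 1.67 and 7.90 against 4.34 and 1.00 CPM of counted reads. Its rates were 0.0221, 0 and 0.0421 with S4U, where the 0 came from 26 covered T positions. The mean of 0.0214 ± 0.0211 (SD, n = 3) became 0.0321 without labeled replicate 2 and 0.0110 without labeled replicate 3. The pooled rate of 10 conversions in 393 positions had an exact 95% interval from 0.0123 to 0.0463. The rise of *Dusp10* passed the beta-binomial test (p = 0.0139), but not without labeled replicate 1 or without unlabeled replicate 1. By limma on the log odds *Dusp10* was not called raised, with or without the replicate number as a block. For *Dusp5*, 1 read in unlabeled replicate 2 was all that was counted. A count of 0 allows 1.90, 2.51 and 5.93 CPM in labeled replicates 1 to 3 and 1.63 in unlabeled replicate 1 (3 reads), so *Dusp5* was not detectable at this depth with S4U.

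Sprouty proteins inhibit receptor tyrosine kinase signaling upstream of ERK. *Spry1* had 841, 260 and 106 labeled and 747 and 208 unlabeled reads, the most of the members in 4 of 5 libraries. The level was 534, 218 and 209 CPM of counted reads with S4U and 405 and 209 without it. Labeled replicate 1 and unlabeled replicate 1 stood above the other 3 libraries. The rate of *Spry1* was 0.0396, 0.0404 and 0.0444 with S4U and 0.000582 and 0.000217 without it (beta-binomial p = 1.04e-07). The share of its reads with a conversion was 49.3%, 53.5% and 62.3% in the labeled libraries.

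*Spry2* had 568, 176 and 90 labeled and 761 and 187 unlabeled reads. Its level was 360, 147 and 178 with S4U and 413 and 188 CPM of counted reads without it, again highest in the libraries numbered 1 of both groups. The T>C conversion rate of *Spry2* was 0.0333, 0.0337 and 0.0368 with S4U (beta-binomial p = 5.97e-07). *Spry2* had the largest number of conversions without S4U of all members, 41 in 15416 and 6 in 4414 covered T positions, or rates of 0.00266 and 0.00136. The mean of both rates, 0.00201, was above the upper quartile of such means in deeply covered intervals. These conversions came 1 to a read, from 41 of 761 and 6 of 187 reads, whereas the labeled *Spry2* reads with a conversion had 1.38, 1.44 and 1.53 conversions each.

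The rates of the paralogs did not overlap. *Spry1* was above *Spry2* in 3 of 3 labeled libraries, with means of 0.0415 ± 0.00256 and 0.0346 ± 0.00193 (SD, n = 3), and the exact 95% intervals of the pooled rates were 0.0378 to 0.0429 and 0.0312 to 0.0366. Less the unlabeled rate, the means were 0.0411 and 0.0326. No test was made between genes.

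*Spry4*, read from 3559 bases in exon 3, had 33, 12 and 7 labeled and 31 and 15 unlabeled reads. The level was 20.9, 10.04 and 13.8 against 16.8 and 15.1 CPM of counted reads. The libraries numbered 1 were highest, and the groups overlapped. Its rates of 0.0546, 0.0285 and 0.0438 had an SD of 0.0131, the largest after that of *Dusp10*, and they rested on 678, 281 and 160 covered T positions. A single conversion was seen without S4U, and the rise passed the beta-binomial test (p = 0.000296).

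Spred proteins carry a Sprouty-related domain and restrain RAS and RAF at the membrane. *Spred1* had 301, 223 and 93 labeled and 328 and 191 unlabeled reads. With 191, 187 and 184 against 178 and 192 CPM of counted reads, it was the steadiest member, and the groups overlapped. Its rate was 0.0376, 0.0391 and 0.0331 with S4U and 0.000500 and 0.000384 without it (beta-binomial p = 2.02e-07). A second interval of *Spred1*, 663 bases long, held 17, 3 and 2 labeled and 8 and 4 unlabeled reads, so nearly all reads came from the 4330-base interval.

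*Spred2* had 45, 46 and 21 labeled and 38 and 28 unlabeled reads. Its level was 28.6, 38.5 and 41.5 CPM of counted reads with S4U and 20.6 and 28.1 without it. All labeled libraries were above the unlabeled ones, with little between labeled replicate 1 and unlabeled replicate 2. The T>C conversion rate of *Spred2* was 0.0452, 0.0443 and 0.0473, which gave the highest mean of the members, 0.0456 ± 0.00157 (SD, n = 3). No conversion was seen in 934 and 740 covered T positions without S4U (limits 0.00321 and 0.00405), and the rise passed the beta-binomial test (p = 3.51e-06).

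A shorter interval of *Spred2*, chr11:19971448-19972597, is nested at the 5′ end of the one used. It was looked at after the values had been seen. It held 42.2%, 26.1% and 42.9% of the labeled *Spred2* reads and 50.0% and 21.4% of the unlabeled ones. The rate in this proximal stretch was 0.0306, 0.0415 and 0.0351, against 0.0543, 0.0451 and 0.0532 in the distal remainder. The distal rate was thus the higher in 3 of 3 libraries, on 11, 13 and 6 proximal and 31, 47 and 19 distal conversions. No test was made of this difference.

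Measured against all intervals, the T>C conversion rate was raised in 94.6% of 19240 tested intervals, and in 9 of the 9 members that could be tested. That share says little about the members, so their rates were compared with the 3156 deeply covered intervals, whose labeled rate had a median of 0.0390 and quartiles of 0.0349 and 0.0424. The members had a median of 0.0366. *Spred2*, *Spry4* and *Spry1* were above the median of deeply covered intervals and the other 6 were below it. Only *Spry1*, *Spry2*, *Dusp1* and *Spred1* were deeply covered themselves. The exact 95% interval of the pooled labeled rate held that median in every tested member but *Spry2* (0.0312 to 0.0366). *Spred2* exceeded 91.9% of the deeply covered intervals, though its own coverage was lower than theirs in some libraries, and *Spry1* exceeded 69.3%. *Dusp6*, *Dusp1*, *Spred1* and *Spry2* exceeded 44.3%, 33.1%, 32.9% and 23.8%.

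From high to low, the mean rates ran *Spred2*, *Spry4*, *Spry1*, *Dusp6*, *Dusp1*, *Spred1*, *Dusp4*, *Spry2* and *Dusp10*. Of the 8 steps between neighbours, only that from *Spry1* to *Dusp6* was larger than the larger SD of the pair, and it held in 2 of 3 libraries. Of 36 pairs of members, 7 had ranges that did not overlap. *Spred2* was above *Dusp1*, *Dusp6*, *Dusp10*, *Spry2* and *Spred1*, and *Spry1* was above *Spry2* and *Spred1*. By the share of reads with a conversion, the order differed. *Dusp1* had the highest mean with 64.7% ± 8.64, *Dusp6* had 59.7% and *Spred2* had 59.3%, while *Spry1* had 55.0% and the median of deeply covered intervals was 53.3%. A *Dusp1* read in the labeled libraries covered 27.6 T positions on average.

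**Figure D2:**
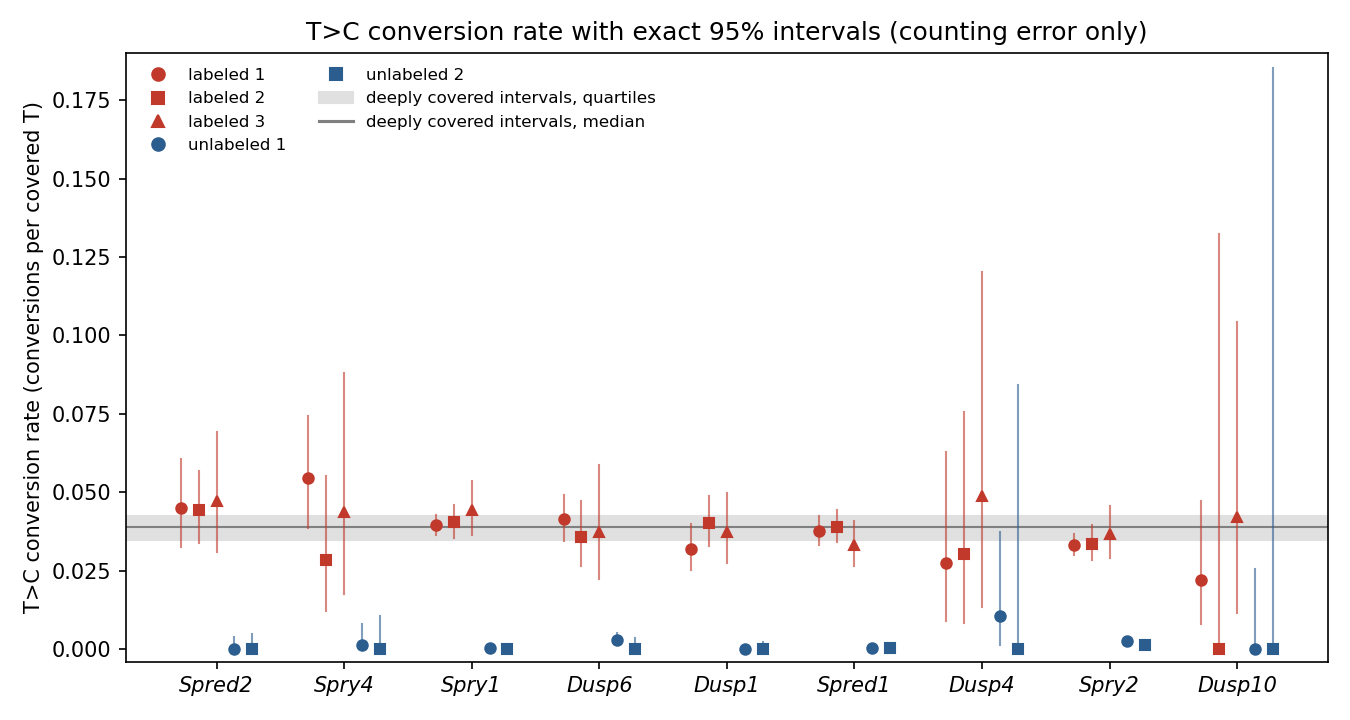
T>C conversion rate of the 9 members with covered T positions in every library, with 1 symbol per library and exact 95% intervals for counting error, and the median (0.0390) and quartiles of 3156 deeply covered intervals in grey. Labeled values (red) of *Spry1* and *Spry2* do not overlap, and *Dusp4* and *Dusp10* have wide intervals.

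The read counts were compared between groups to ask whether 12 h of S4U went along with other levels of the feedback genes. Of the 10 members, 7 passed the filter on low counts, and *Dusp4*, *Dusp5* and *Dusp10* did not. None of the 7 was higher and none lower by edgeR's quasi-likelihood test at an adjusted p below 0.05, and none had an unadjusted p below 0.05. Over all 9807 genes tested the shares called by this fit, which has no term for the replicate number, were 0% and 0% as well. The unadjusted p was below 0.05 with a higher level for 279 genes and with a lower one for 306. These counts were 446 and 535 without labeled replicate 1, 157 and 148 without labeled replicate 2, and 155 and 153 without labeled replicate 3. With the replicate number as a block they were 1180 and 1158. DESeq2 called 13 genes higher and 7 lower. edgeR with the replicate number as a block called 528 higher and 618 lower. No member was among the genes called in either fit. The largest estimates were those of *Spred2*, with a log2 fold change of 0.64 and an SE of 0.36 (edgeR adjusted p = 0.955), and of *Dusp1*, with 0.47 and an SE of 0.29 (edgeR adjusted p = 0.978). With each library left out in turn, the estimate ran from 0.37 to 0.91 for *Spred2* and from 0.38 to 0.61 for *Dusp1*. This ranking was not stable, as *Spry1* had 0.64 without unlabeled replicate 1, where *Spred2* had 0.37. The members' median log2 fold change was 0.09, and that of all genes 0.02.

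All labeled libraries were above both unlabeled ones in 2 of the 7 members, *Dusp1* and *Spred2*, which can be set beside 8.20% of all genes tested. The opposite order was seen in 0 of 7, beside 13.1% of all genes. With all labeled libraries above the unlabeled ones, as in *Dusp1* and *Spred2*, leaving out 1 library leaves the sign unchanged. Their stable sign therefore adds nothing to that order. For the other 5 members, the sign of the fold change was not stable when 1 library was left out. *Dusp6* went from -0.22 to 0.47 and *Spry2* from -0.31 to 0.31 without unlabeled replicate 1. *Spry1* went from 0.14 to -0.42 without labeled replicate 1 and to -0.23 without unlabeled replicate 2. *Spry4*, with an estimate of -0.00, ran from -0.38 without labeled replicate 1 to 0.24 without labeled replicate 2. *Spred1* went from 0.09 to just below 0 without unlabeled replicate 1. These data did not allow a difference to be told from none for these genes.

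**Figure D3:**
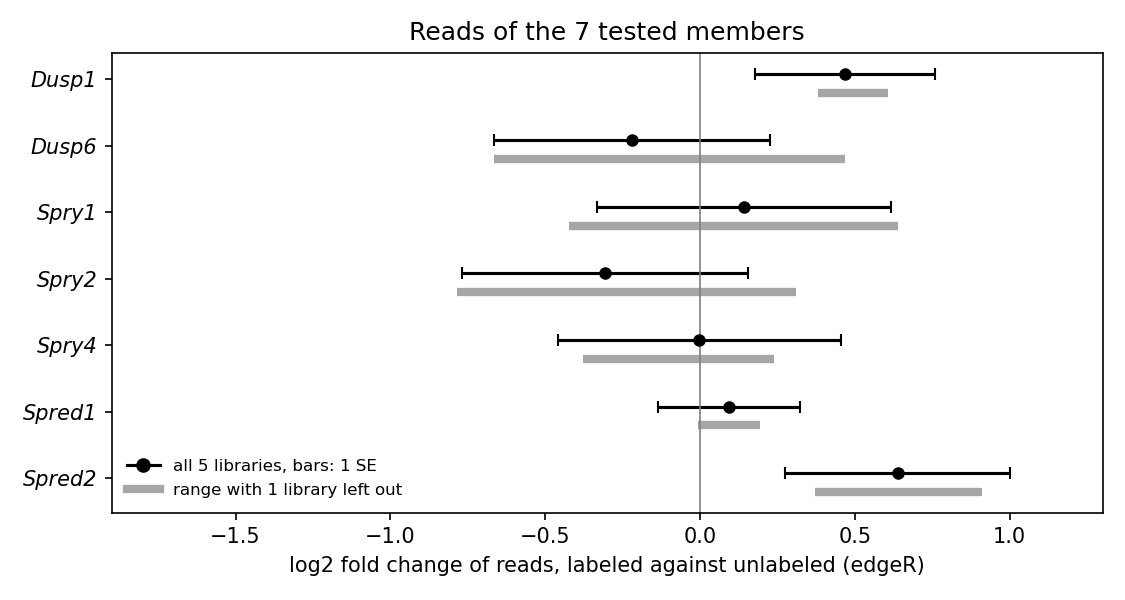
Log2 fold change of reads, labeled against unlabeled, of the 7 members tested with edgeR (points, bars of 1 SE), and the range of the estimate with each library left out in turn (grey). Only *Dusp1* and *Spred2* keep all estimates on one side of 0, which follows from their labeled libraries all being above the unlabeled ones.

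The larger part of the variation in *Spry1*, *Spry2* and *Dusp6* lay between libraries of the same group. Their mean level in labeled replicate 1 and unlabeled replicate 1 was 2.21, 2.26 and 2.11 times the mean of the other 3 libraries. These ratios, computed after the values had been seen, were higher than those of 94.2%, 94.8% and 92.8% of all genes tested, whose median ratio was 1.08 with quartiles of 0.737 and 1.48. Both libraries numbered 1 were the highest in 4 of 7 members, the fourth being *Spry4* with a ratio of 1.45, and in 30.0% of all genes tested. *Spred1* had a ratio of 0.985, *Dusp1* of 0.849 and *Spred2* of 0.682, so the members did not move together.

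Some marker genes moved along the same split. Leukocyte and macrophage markers summed to 36.2 and 35.8 CPM of counted reads in the libraries numbered 1 of the labeled and unlabeled group, and to 73.6, 47.4 and 70.3 in labeled replicates 2 and 3 and unlabeled replicate 2. Of these 5 genes, *Lyz2* carried the split, with 2.54 and 3.26 against 27.6, 17.8 and 30.1, and *Csf1r* was also lower, with 9.52 and 2.17 against 19.2, 15.8 and 12.05. *Cd68*, with 16.5 and 20.1 against 17.6, 11.9 and 11.04, and *Adgre1* did not follow it. Nor did *Ptprc*, with 0.634 and 2.71 against 3.35, 0 and 3.01. Smooth muscle and pericyte markers summed to 544 and 359 against 1413, 1626 and 743, nearly all of it from *Acta2*, which cultured fibroblasts express too. *Rgs5*, *Kcnj8* and *Myh11* were each below 8 CPM in every library and did not follow the split. Endothelial markers summed to 76.8 and 107 against 146, 81.0 and 163. Of these 4 genes, *Pecam1*, with 5.71 and 10.9 against 27.6, 17.8 and 41.2, and *Tie1* were lowest in both libraries numbered 1, whereas *Cdh5* and *Kdr* were not. In the libraries numbered 1, *Lyz2* and *Tie1* stood at 2.54 and 3.26, near the 1.90 and 1.63 CPM that 3 reads give. Over all genes tested, 43.7% had a lower mean level in the libraries numbered 1 than in the others. The share lowest in both is not given here. Fibroblast markers were at 20495 and 16134 against 19929, 20145 and 17229, a sum led by *Col1a1*, which was higher in the labeled libraries, whereas *Pdgfra* and *Ddr2* were lower in them. The study's isolation of CF included a magnetic depletion of CD31+ endothelial and CD45+ immune cells. The part of these genes' cells of origin in the levels of *Spry1*, *Spry2* and *Dusp6* was not tested, and whether a replicate number marks a shared preparation is not given in the sources used here.

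**Figure D4:**
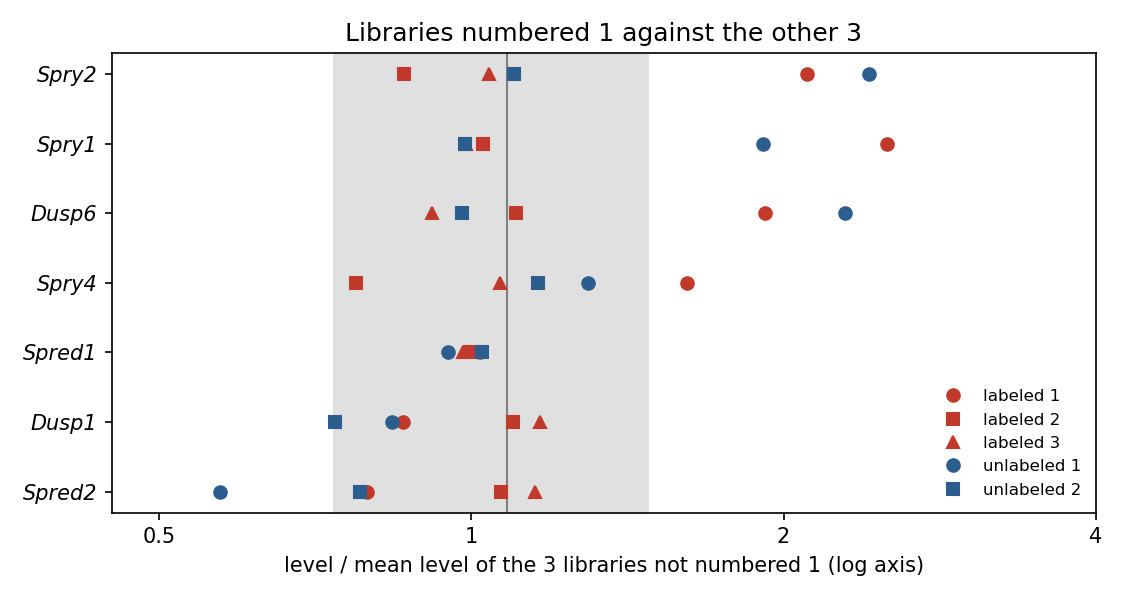
Level of the 7 tested members in each library divided by the mean of the 3 libraries not numbered 1 (log axis), with the median (1.08) and quartiles (0.737 and 1.48) in grey of the ratio of the libraries numbered 1 to the others over all genes tested. Circles are the libraries numbered 1, which lie to the right for *Spry2*, *Spry1* and *Dusp6* and not for *Spred1*, *Dusp1* and *Spred2*.

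Other genes of the pathway were listed for comparison. Of 13 other DUSP, Sprouty, Spred and receptor feedback genes, 11 could be tested for the rate and 10 were raised. None of them was deeply covered, and of 8 tested for reads 0 were called by edgeR. Of 27 genes upstream of ERK, from receptors to the kinases, 27 were raised, and the 12 deeply covered ones had a median rate of 0.0404. Among those with high rates was *Map2k1*, which encodes a MEK kinase, with 0.0457 ± 0.00246 (SD, n = 3). Among those with low rates was the adaptor *Grb2* with 0.0345 ± 0.00222. *Spry1* with 0.0415 and *Spred1* with 0.0366 lay between these values.

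Among 20 genes known to respond to ERK, 17 were tested for the rate and 17 were raised. The 6 deeply covered ones ran from 0.0327 ± 0.00108 in *Ier3* and 0.0330 ± 0.00243 in *Klf6* to 0.0365 ± 0.00291 in *Junb* and 0.0375 ± 0.00204 in *Mcl1* (SD, n = 3). All 6 were below the median of deeply covered intervals, as were 3 of the 4 deeply covered members, *Dusp1*, *Spry2* and *Spred1*. Of 8 JNK and p38 pathway kinases, 8 were raised, and the 3 deeply covered ones were *Mapk9* with 0.0505, *Map2k4* with 0.0388 and *Map2k3* with 0.0307. In reads, edgeR called 0 of 26 upstream genes, 0 of 15 responsive genes and 0 of 8 kinases. At an unadjusted edgeR p below 0.05, *Ier3* and *Phlda1* of the 15 responsive genes had higher read numbers with S4U. *Dusp3* of 8 other feedback genes and *Egfr* of the 26 upstream genes had lower ones. The same cutoff gave 279 higher and 306 lower among all 9807 genes tested, and edgeR's adjusted p of these named genes was 0.741 to 0.792. *Phlda1*, *Dusp3* and *Egfr* were named after their values had been seen.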

How the data were processed

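SLAMseq libraries of CF, 3 with and 2 without S4U, were grouped by the submitters' labels. Replicates are fibroblast preparations per the study's methods. The authors moved the UMIs to the read headers, mapped the 3′ end reads to mm39 with SLAM-DUNK 0.4.3 and removed duplicates with umi-tools. Whether counting used the strand is not given in the sources used here. For each 3′ UTR interval, the authors deposited counts of reads, of reads with a T>C conversion, of covered T positions and of conversions, without normalization. The authors' conversion rate is a fraction of covered T positions, and the deposited CPM is the read count scaled by 1 number per library.

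Of 97442 rows, 40428 distinct intervals were kept. T content matched GRCm39 for 40380 of 40380 intervals on its chromosomes. For T>C rates, a likelihood-ratio test of a beta-binomial model was used (1 shared overdispersion, two-sided, call at p below 0.05), wherever all libraries covered a T. Reads, 1 interval per gene, were tested by edgeR's quasi-likelihood method (two-sided, TMM, filterByExpr, Benjamini-Hochberg adjustment over all genes). Intervals for rates are exact Clopper-Pearson at 95%. Tested on simulated data with 200 changed features, the beta-binomial test called 94% of them and 9.21% of the unchanged intervals, so it is liberal. At a simulated log2 fold change of 2, edgeR called 81.5% and 0.0852% and DESeq2 83% and 0.138%. That change is larger than any tested member's estimate, so these shares do not give the power for the members. limma on the log odds called 60% and 0.107%, in data simulated without the overdispersion used for the beta-binomial test.

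The members and gene lists were chosen with earlier results of these data known. By rule, the text names the members and, from each list, the deeply covered genes with the 2 highest and 2 lowest rates, plus any with an adjusted p below 0.05 in reads, of which edgeR gave none. Results for some of these genes are left out. Settings varied were the minimum of covered T positions, adjusted p-values, limma with a pseudocount of 0.5, DESeq2, RLE size factors, no filter, summed intervals, the replicate number as a block, other measures of level and labeling, and each library left out. Software was Python 3.11.15 with numba 0.67.0, scipy 1.17.1, numpy 2.4.6, matplotlib 3.10.9 and pandas 2.3.3, and R 4.3.3 with DESeq2 1.42.0, limma 3.58.1 and edgeR 4.0.16. Promoters and proteins were not analysed here.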

Additional observations from a re-analysis of the deposited data

How the results depend on the processing

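Intervals with a raised T>C rate numbered 18200, and 17056 to 18632 with 1 library left out. Only 3154 remained testable and raised at 1000 or more covered T positions, and 10641 with 1 interval per gene, since fewer intervals entered. Of the members, 9 were raised, 7 to 9 with 1 library left out (7 without unlabeled replicate 1) and 4 at 1000 or more covered T positions, where 4 were tested. limma on the log odds raised 8, without *Dusp10*, and 7 with the replicate block, without *Dusp10* and *Dusp4*. Members higher or lower in reads stayed at 0 in every setting, leave-one-out fits included (0 to 0). Over all genes, higher and lower calls stayed at 0 with each library left out (0 to 0), but DESeq2 gave 13 and 7, and edgeR with the replicate block gave 528 and 618. That fit leaves 1 residual degree of freedom, and libraries with number 1 and number 2 correlated at 0.786 and 0.641 in their deviations from the group means. With 2 unlabeled libraries these deviations mirror each other, so centring partly sets the value for number 2 and the 0.484 of labeled replicate 3 with unlabeled replicate 2. The numbers are not labeled as shared preparations.

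Of 70 alternative log2 fold changes, 61 kept their sign. The sign changed for *Dusp6* (0.47) and *Spry2* (0.31) without unlabeled replicate 1, for *Spry1* without labeled replicate 1 (-0.42) and unlabeled replicate 2 (-0.23), and for *Spred1* without unlabeled replicate 1 (-0.0079). *Spry4* changed with the replicate block (0.065) and without labeled replicate 2 (0.24), labeled replicate 3 (0.03) or unlabeled replicate 1 (0.03). With each library left out in turn, the estimates ran from -0.67 to 0.47 for *Dusp6*, -0.42 to 0.64 for *Spry1*, -0.79 to 0.31 for *Spry2*, -0.38 to 0.24 for *Spry4* and -0.0079 to 0.19 for *Spred1*. The cause was not tested. Summed intervals are not read for *Spred2* and *Dusp10*, whose nested intervals count reads more than once. Depth limits *Dusp4*, *Dusp5* and *Dusp10*, with 24 or fewer labeled reads each.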

Other observations

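*Mapk3*, which encodes an ERK kinase and was singled out after its values had been seen, showed the split between libraries in the opposite direction to *Spry1*, *Spry2* and *Dusp6*. It had 20, 128 and 56 reads in labeled replicates 1 to 3 and 15 and 88 in unlabeled replicates 1 and 2. Its level was 12.7, 107 and 111 CPM of counted reads with S4U and 8.14 and 88.3 without it. The other 3 libraries had 9.80 times the mean of the libraries numbered 1, a ratio of number 1 to others (0.102) that was lower in only 0.286% of all genes tested. *Etv5*, an ETS factor among the ERK-responsive genes, had 4, 15 and 9 labeled and 2 and 5 unlabeled reads, or 2.54, 12.6 and 17.8 against 1.09 and 5.02 CPM, lowest in the libraries numbered 1 as well. The share of the genes tested with a ratio above 2 was 8.77%, beside 3 of the 7 members.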
